A study of Rattus norvegicus with 18 samples.

Results

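Adhesion molecules that carry blood leukocytes out of the vessel were measured in the cerebral cortex of rats after subarachnoid hemorrhage (SAH), bleeding into the space around the brain. The set was named by gene symbol and held 10 genes, namely 5 adhesion molecules of the vessel wall (Icam1, Vcam1, Sele, Selp, Pecam1), 4 subunits of leukocyte integrins (Itgam, Itgb2, Itgal, Itga4) and the hyaluronan receptor gene Cd44. Of these, 9 were found by symbol among the 30735 genes of the count table, and all 9 were among the 18444 genes that passed the filter on low counts and were tested. No row carried the symbol Pecam1, which was not analysed here.

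RNA sequencing covered 18 adult Sprague Dawley rats in 3 groups of 6, with 1 library per rat and no genetic alteration named in the labels of any group. SAH was induced by endovascular perforation, in which a filament advanced through the internal carotid artery pierces the vessel where it branches inside the skull. Cortex was taken at 1 day (SAH 1d) or at 7 days (SAH 7d). Sham rats underwent the operation without the perforation, and a single sham group served both times, so the comparisons of SAH 1d and of SAH 7d with sham share their control libraries. The methods of the study give the tissue as the whole cortex of the operated side, rinsed with saline, whereas the sample labels speak of cortex from both hemispheres and of mice, although the gene identifiers are those of rat. Levels are given as FPKM, a count of sequenced fragments scaled to the length of the transcript and to the size of the library. Fold changes are on the log2 scale and come from the read counts, with their standard errors (SE), and a gene was taken as changed at an adjusted p under 0.05 in the quasi-likelihood test of edgeR with Benjamini-Hochberg adjustment over all tested genes. Because whole tissue was sequenced, fewer cells of a type and less RNA per cell cannot be told apart.

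Total counts per library lay between 27270026 and 38271014. Neuronal markers, which define the labelled tissue, were high in every library (summed level of 5 genes, 805 to 3562 FPKM), and the 4 cortical markers found summed to 20.7 to 72.3 FPKM. In both of these sums the lowest value belonged to a library that stood apart from its group. For SAH 1d-3 the median Spearman correlation with its group was 0.9381, and for SAH 7d-5 it was 0.8846, against 0.9774 to 0.9843 for the other 16 libraries. SAH 7d-5 also had the highest summed level of monocyte and macrophage markers (6636 FPKM, against 61.0 to 180.4 FPKM in the rest of its group), most of it the lysozyme gene Lyz2 at 6592 FPKM, and SAH 1d-3 had the highest summed level of neutrophil markers of all libraries (83.1 FPKM). SAH 1d-3 was the highest of its group for 7 of the 9 adhesion genes and for 33.1% of all tested genes. SAH 7d-5 was the highest of its group for 9 of 9 and for 38.7% of all tested genes. They are called the 2 outlying libraries, and fold changes of the adhesion genes that move without them are given both ways. For partner genes, marker genes and correlations this was done only in part.

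Leukocytes leave the blood in steps. Selectins on activated endothelium (E-selectin, encoded by Sele, and P-selectin, encoded by Selp) catch passing cells and let them roll. Chemokines then switch leukocyte integrins into their binding state, and these integrins hold on to ligands of the immunoglobulin family, ICAM-1 and VCAM-1, before the cell crosses the wall. The β2 integrins LFA-1 and Mac-1 share the β2 chain (Itgb2) and differ in the α chain (Itgal and Itgam), and the α4 chain (Itga4) pairs with β1 as VLA-4, the receptor for VCAM-1. In the brain, microglia also carry Mac-1, CD44 is made by reactive astrocytes as well as by leukocytes, and ICAM-1, VCAM-1 and E-selectin are well known targets of inflammatory cytokines acting through NF-κB.

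Promoter sequences are shown for 3 endothelial genes that the NF-κB family is known to regulate, and for Itgam as a gene of myeloid cells. They come from RefSeq in the rat build GRCr8, and each is the 250 bases before the annotated transcript start, read 5′ to 3′ on the strand of the gene. Icam1 lies on the plus strand at chr8:27829595-27829844, Vcam1 on the minus strand at chr2:206742784-206743033, Sele on the plus strand at chr13:78936264-78936513 and Itgam on the plus strand at chr1:192089342-192089591. Capitals mark matches to the motifs described after the sequences.
Icam1 promoter: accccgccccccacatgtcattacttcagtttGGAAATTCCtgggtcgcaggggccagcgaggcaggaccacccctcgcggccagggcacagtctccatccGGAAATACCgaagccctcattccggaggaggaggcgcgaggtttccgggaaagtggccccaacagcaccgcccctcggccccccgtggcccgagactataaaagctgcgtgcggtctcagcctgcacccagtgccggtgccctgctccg
Vcam1 promoter: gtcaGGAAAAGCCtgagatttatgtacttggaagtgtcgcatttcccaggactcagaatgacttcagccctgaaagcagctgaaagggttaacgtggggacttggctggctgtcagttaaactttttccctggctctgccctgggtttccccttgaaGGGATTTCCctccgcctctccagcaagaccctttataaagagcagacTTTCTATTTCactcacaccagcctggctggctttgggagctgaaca
Sele promoter: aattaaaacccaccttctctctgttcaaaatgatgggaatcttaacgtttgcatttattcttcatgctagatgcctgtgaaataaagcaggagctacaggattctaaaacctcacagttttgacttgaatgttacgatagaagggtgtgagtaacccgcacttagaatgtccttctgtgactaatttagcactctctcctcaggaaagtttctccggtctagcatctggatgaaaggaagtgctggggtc
Itgam promoter: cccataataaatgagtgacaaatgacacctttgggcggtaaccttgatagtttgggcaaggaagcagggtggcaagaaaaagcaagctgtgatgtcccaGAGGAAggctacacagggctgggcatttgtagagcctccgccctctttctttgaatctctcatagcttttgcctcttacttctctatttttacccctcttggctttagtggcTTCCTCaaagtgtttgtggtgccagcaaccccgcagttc

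Searches of both strands used the NF-κB motif GGNNTTTCC, the interferon regulatory factor motif (a GAAA, any 2 bases and another GAAA), the AP-1 motif TGANTCA and the PU.1 motif GAGGAA, over windows from 250 bases before to 50 bases after each start. Of the 33469 windows in the RefSeq table, 6.05% held the NF-κB motif, 3.92% the interferon regulatory factor motif, 7.33% the AP-1 motif and 27.6% the PU.1 motif. Icam1 had 2 NF-κB matches, both on the opposite strand, beginning 218 and 149 bases before the start. Vcam1 also had 2, beginning 246 bases before the start on the opposite strand and 93 bases before it on the strand of the gene, and 1 interferon regulatory factor match, on the opposite strand 46 bases before the start. Itgam held 2 PU.1 matches, at 151 bases before the start on the strand of the gene and at 39 bases on the opposite strand. Sele, Itga4 and Cd44 held no match to any of the 4 motifs in these windows. No match overlapped another, a match is a run of letters and not a measured binding site, and a window without one lacks only these letters.

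At SAH 1d, transcript levels of Icam1, Sele, 3 of the 4 integrin chains and Cd44 rose well above sham. In the edgeR test 7 of the 9 adhesion genes were higher in SAH 1d than in sham, where 14.9% of all tested genes were higher, and all 7 were changed at least 2-fold, as were 5.57% of all tested genes in that direction. The median log2 fold change of the 9 genes was 2.72, beside 0.0086 for all tested genes. In 6 genes every SAH 1d library lay above every sham library in counts scaled to library size (CPM), which held for 7.89% of all tested genes. Vcam1 and Itga4, which encode VCAM-1 and the α chain of its receptor, did not pass the test. Without SAH 1d-3 the count was again 7 of 9, beside 15.4% of all tested genes, and the median log2 fold change was 1.93.

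**Figure D1:**
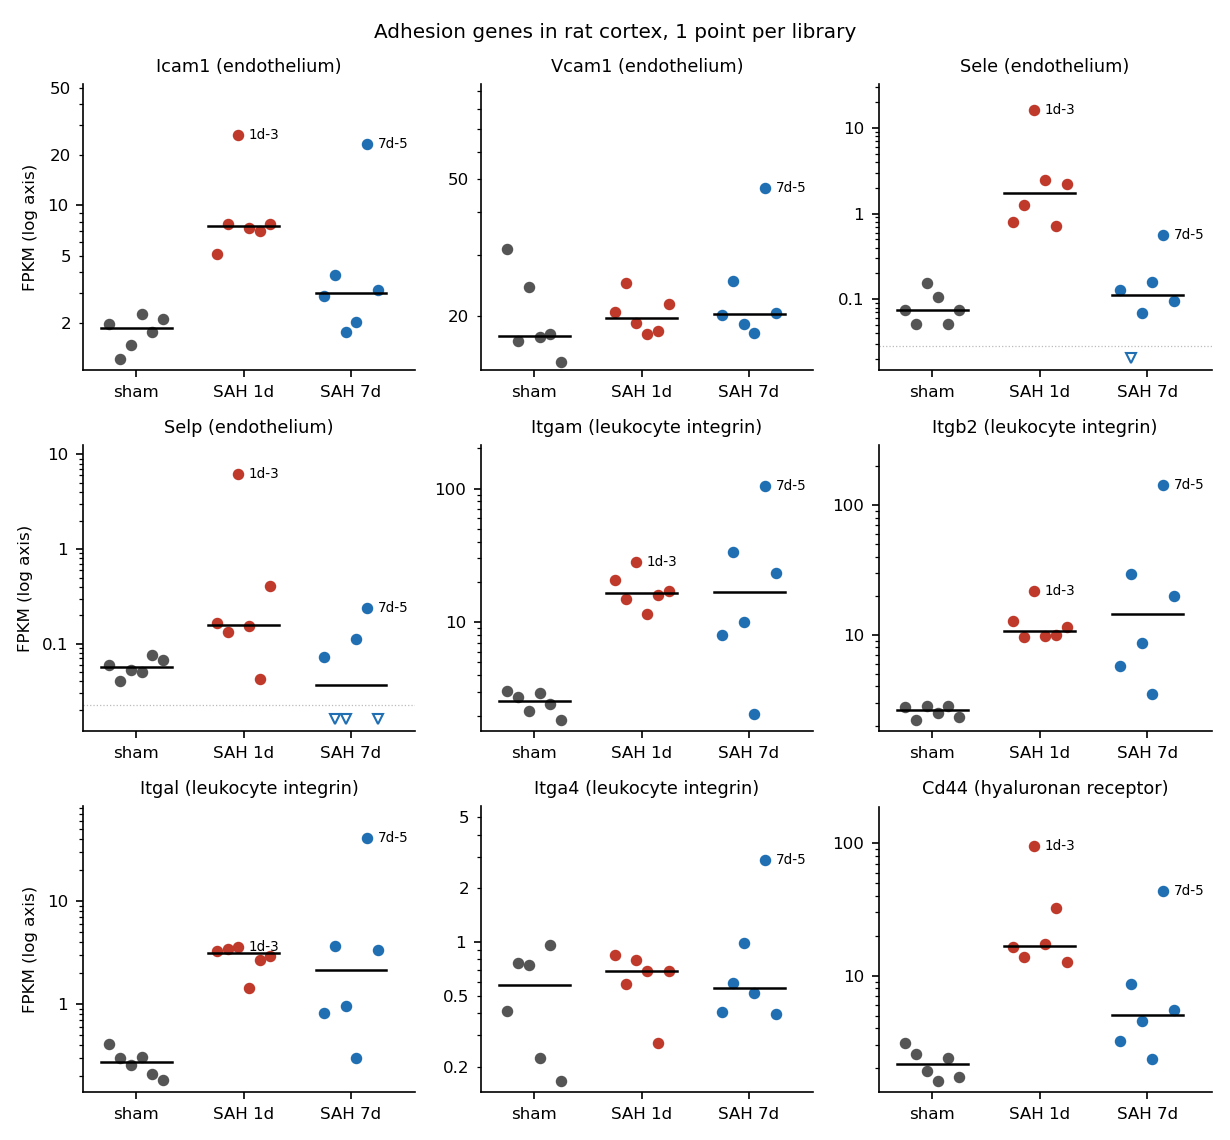
FPKM of the 9 adhesion genes on log axes, 1 point per library (6 per group), with a bar at the group median; open triangles under the dotted line are libraries listed at 0. SAH 1d-3 and SAH 7d-5 are named where they are the highest of their group, and Vcam1 is the gene whose 3 groups lie closest together, at medians of 17.5, 19.7 and 20.2 FPKM.

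Icam1 (ENSRNOG00000020679), whose product is the endothelial ligand of LFA-1 and Mac-1, had 1.21 to 2.26 FPKM in the sham group (median 1.86). It had 5.14 to 26.2 FPKM in the SAH 1d group (median 7.52). The groups did not overlap, and SAH 1d-3 held 42.8% of the summed SAH 1d level. Against sham its log2 fold change was 2.39 (SE 0.38, adjusted p = 0.00103), and 1.83 (SE 0.17, adjusted p = 1.08e-05) without SAH 1d-3.

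Sele (ENSRNOG00000002723), the endothelial selectin made only on activation, had 0.0515 to 0.155 FPKM in sham (median 0.0742), from 6 to 16 reads per library. It reached 0.724 to 16 FPKM at SAH 1d (median 1.74), or 75 to 2249 reads. All 6 SAH 1d libraries lay above all sham libraries, with SAH 1d-3 far above the rest, whose highest value was 2.47 FPKM. Sele had the largest log2 fold change of the 9 genes, at 5.37 (SE 0.87, adjusted p = 0.00119), and 3.94 (SE 0.39, adjusted p = 2.26e-05) without SAH 1d-3.

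Selp (ENSRNOG00000002794), the selectin that endothelium and platelets store ready made, was carried mostly by a single library. Sham libraries held 4 to 8 reads and a median of 0.0565 FPKM. In the SAH 1d group 789 reads came from SAH 1d-3 and 4 to 41 from each other library, with a median of 0.159 FPKM and a highest value of 6.21 FPKM. SAH 1d-3 made up 87.4% of the summed level, and SAH 1d-5 lay within the sham range. A log2 fold change of 4.16 (SE 1.15, adjusted p = 0.0197) became 1.41 (SE 0.46, adjusted p = 0.036) without SAH 1d-3, and the call was lost in limma voom with sample weights (adjusted p = 0.0652) and in limma on log2 FPKM (adjusted p = 0.149 to 0.456). DESeq2 on all libraries gave Selp no adjusted p.

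Vcam1 (ENSRNOG00000014333) was the most abundant of the 9 genes in each group by median FPKM, also in sham. Sham libraries ran from 14.7 to 31.3 FPKM (median 17.5), and SAH 1d libraries from 17.7 to 24.9 FPKM (median 19.7). Every SAH 1d library fell inside the sham range, and the fitted difference was -0.13 on the log2 scale (SE 0.18, adjusted p = 0.632). Icam1 and Vcam1 both carry NF-κB letters in the promoters shown above. At SAH 1d Icam1 passed the test and Vcam1 did not, and the difference between their fold changes was not tested.

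Itgam (ENSRNOG00000019728), the α chain of Mac-1, rose from 1.86 to 3.04 FPKM in sham (median 2.58) to 11.6 to 28.1 FPKM at SAH 1d (median 16.6). The groups were far apart, and the lowest SAH 1d library was above the highest sham library by several times the sham range. Its log2 fold change was 2.72 (SE 0.21, adjusted p = 9.9e-06).

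Its partner Itgb2 (ENSRNOG00000001224), the β2 chain, rose from 2.22 to 2.85 FPKM (median 2.64) to 9.68 to 21.9 FPKM (median 10.7). No libraries overlapped, and SAH 1d-3 was again the highest. For Itgb2 the log2 fold change was 2.18 (SE 0.21, adjusted p = 3.38e-05). Itgal (ENSRNOG00000017980), the α chain of LFA-1 and the least abundant β2 partner of the set in sham, rose from 0.182 to 0.405 FPKM (median 0.276) to 1.43 to 3.56 FPKM (median 3.1). Its 6 SAH 1d libraries lay together above sham, with SAH 1d-4 the lowest. Itgal had a log2 fold change of 3.24 (SE 0.25, adjusted p = 1.02e-05). Leaving out SAH 1d-3 moved the log2 fold changes of these 3 chains little, to 2.53, 1.93 and 3.16.

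The level of Itga4 (ENSRNOG00000004861), the α chain of VLA-4, was 0.166 to 0.963 FPKM in sham (median 0.576) and 0.274 to 0.853 FPKM at SAH 1d (median 0.691). All SAH 1d libraries fell within the wide sham range, and the log2 fold change was 0.15 (SE 0.40, adjusted p = 0.816).

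Cd44 (ENSRNOG00000006094), which encodes a receptor for the matrix sugar hyaluronan, had 1.61 to 3.09 FPKM in sham (median 2.14). At SAH 1d it had 12.6 to 94.7 FPKM (median 16.9). No libraries overlapped, SAH 1d-3 held 50.5% of the summed level and SAH 1d-5 followed at 32.6 FPKM. Cd44 had a log2 fold change of 3.57 (SE 0.52, adjusted p = 0.000631), and 2.80 (SE 0.27, adjusted p = 1.6e-05) without SAH 1d-3. By median FPKM, Cd44 ranked 4 of the 9 genes in sham and next after Vcam1 at SAH 1d.

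Levels of neighbouring genes in this order were mostly not separated. In sham, the ranges of Itgb2, Itgam, Cd44 and Icam1 overlapped in turn, below Vcam1 and above Itga4, and Sele and Selp overlapped below Itgal. At SAH 1d the only neighbours whose FPKM ranges did not overlap were Icam1 and Itgal. At SAH 7d every neighbouring pair overlapped.

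At SAH 7d, the β2 integrin chains were above the sham range in most rats, by widely different amounts, and within or close to it in SAH 7d-4. Against sham no adhesion gene passed in edgeR at SAH 7d (0 of 9), as was true of all tested genes (0%), although 2842 genes had an unadjusted p under 0.05. Itgb2 was the only member in which every SAH 7d library lay above every sham library in CPM, a separation found in 0.797% of all tested genes. In the DESeq2 Wald test, Itgam, Itgb2 and Cd44 were higher (3 of 9, beside 2.27% of all genes with an adjusted p), and DESeq2 gave no adjusted p for Icam1 and Itgal. The same tool without the 2 outlying libraries, a setting chosen after seeing the data, called Itgam, Itgb2, Itgal and Cd44 higher (4 of 9, beside 2.52%). In edgeR without SAH 7d-5 the count was again 0 of 9, and again 0% of all tested genes passed.

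Itgam spanned 2.07 to 105 FPKM in the SAH 7d group (median 16.7), beside 1.86 to 3.04 FPKM in sham. SAH 7d-4 lay within the sham range and the other 5 libraries above it. The log2 fold change was 3.52 (SE 0.75, adjusted p = 0.214), and 2.57 (SE 0.51, adjusted p = 0.109) without SAH 7d-5. Itgb2 spanned 3.49 to 144 FPKM (median 14.4), with SAH 7d-5 holding 68.2% of the summed level. Its log2 fold change was 3.71 (SE 0.82, adjusted p = 0.214), and 2.35 (SE 0.45, adjusted p = 0.106) without SAH 7d-5. Itgal spanned 0.298 to 41.1 FPKM (median 2.16), and its lowest library was again SAH 7d-4, inside the sham range. Its log2 fold change of 4.83 (SE 1.13, adjusted p = 0.214) came to 2.67 (SE 0.55, adjusted p = 0.111) without SAH 7d-5.

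At SAH 7d the log2 fold changes of Cd44 and Icam1 were smaller than those of the β2 chains. Cd44 had 2.34 to 43.7 FPKM (median 5.03), with 5 of 6 libraries above the highest sham library. Its log2 fold change was 2.15 (SE 0.62, adjusted p = 0.214), or 1.08 without SAH 7d-5. Icam1 had 1.76 to 23.3 FPKM (median 3.0), with 4 of 6 libraries above the sham range. Its log2 fold change was 1.71 (SE 0.60, adjusted p = 0.254), or 0.56 without SAH 7d-5.

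Both selectins had few reads at SAH 7d, as in sham, with a median of 0.0365 FPKM for Selp. Sham medians were 0.0742 FPKM for Sele and 0.0565 FPKM for Selp. Sele had 0 to 0.566 FPKM (median 0.113), and SAH 7d-2 was listed at 0 counts, where 3 counts would be 0.0906 CPM. Its log2 fold change was 0.91 (SE 0.73), and 0.01 without SAH 7d-5. Selp was at 0 counts in SAH 7d-2, SAH 7d-3 and SAH 7d-6, and reached 26 reads in SAH 7d-5, with a log2 fold change of 0.15 (SE 0.89), and -0.79 without SAH 7d-5. At so few reads a moderate difference in Sele or Selp between sham and SAH 7d was not detectable. Vcam1 (17.8 to 47.1 FPKM, median 20.2, log2 fold change 0.23, SE 0.26) and Itga4 (0.395 to 2.88 FPKM, median 0.556, log2 fold change 0.78, SE 0.56) overlapped with sham, and without SAH 7d-5 their log2 fold changes were -0.03 and 0.08.

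**Figure D2:**
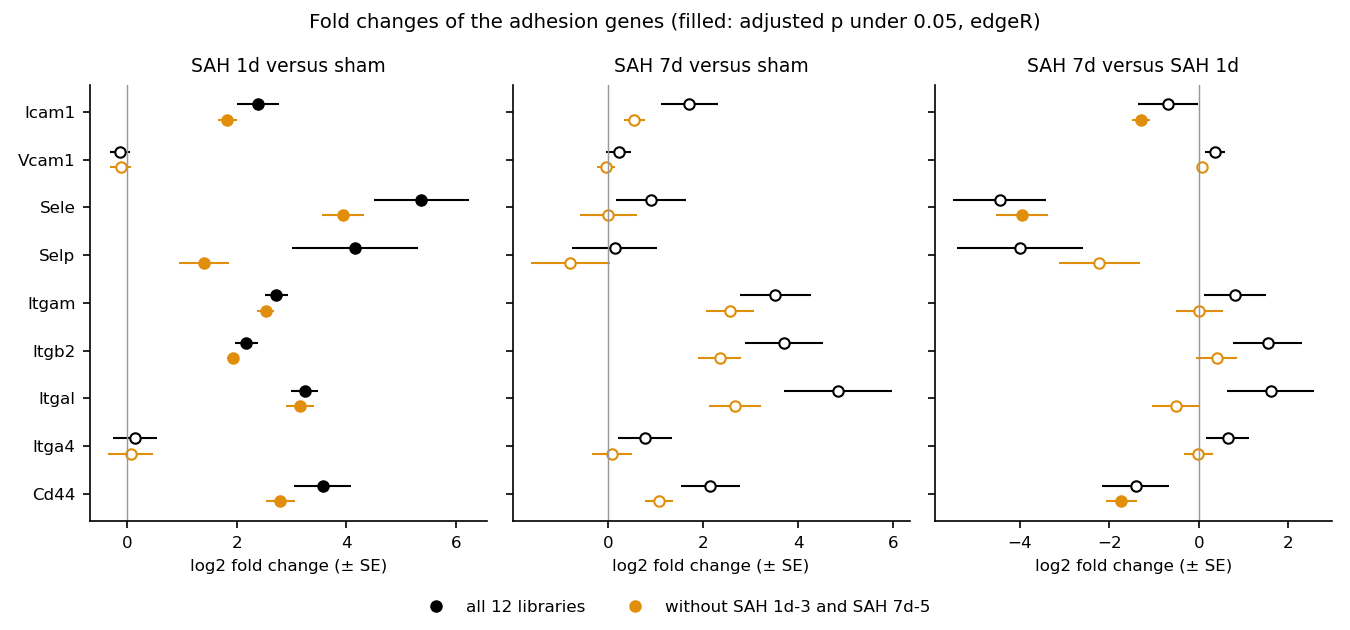
Log2 fold changes (points) with standard errors (bars) of the 9 adhesion genes in the 3 comparisons, with all 12 libraries of a comparison (black) and without the 2 outlying libraries (orange); filled points have an edgeR adjusted p under 0.05. In SAH 1d versus sham 7 genes are filled in both settings, in SAH 7d versus sham none is, and in SAH 7d versus SAH 1d Icam1, Sele and Cd44 are filled without the 2 libraries.

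From SAH 1d to SAH 7d, Sele, Icam1 and Cd44 passed as lower once SAH 7d-5 was left out, but not with only SAH 1d-3 left out. The β2 chains did not pass. With all libraries no adhesion gene passed (0 of 9, beside 1.37% of all tested genes in either direction). Sele came nearest, at a log2 fold change of -4.45 (SE 1.04, adjusted p = 0.0585), and its highest SAH 7d library (0.566 FPKM) lay below its lowest SAH 1d library (0.724 FPKM). In CPM this order held for 2.11% of all tested genes. Without SAH 7d-5, Sele, Icam1 and Cd44 were lower at SAH 7d (3 of 9, beside 5.19% of all tested genes), with log2 fold changes of -5.37 (SE 1.06, adjusted p = 0.012), -1.85 (SE 0.42, adjusted p = 0.0216) and -2.51 (SE 0.59, adjusted p = 0.025). With only SAH 1d-3 left out, none of these 3 genes passed. Their values, in the same order, were then -3.03 (SE 0.77, adjusted p = 0.0745), -0.11 (SE 0.63, adjusted p = 0.961) and -0.64 (SE 0.66, adjusted p = 0.716). Without both outlying libraries the same 3 genes passed, with values of -3.95 (SE 0.58, adjusted p = 0.00175), -1.29 (SE 0.20, adjusted p = 0.00226) and -1.73 (SE 0.35, adjusted p = 0.00778), beside 7.49% of all tested genes that were lower. Limma voom on all 12 libraries called these 3 and Selp lower (4 of 9, beside 8.37%), and DESeq2 called Sele (1 of 9, beside 3.63%). DESeq2 gave no adjusted p for Icam1, Selp and Itgal in this comparison.

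The integrin chains did not pass in this comparison with or without these libraries. With all libraries the log2 fold changes of Itgam, Itgb2 and Itgal from SAH 1d to SAH 7d were 0.81 (SE 0.69), 1.54 (SE 0.77) and 1.60 (SE 0.97). Without the 2 outlying libraries they were 0.01 (SE 0.52), 0.40 (SE 0.46) and -0.51 (SE 0.54). Itga4 had -0.01 (SE 0.32) and Vcam1 0.07 (SE 0.11) in the same setting. The standard errors of the 3 β2 chains leave room for changes in either direction.

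Within the SAH 7d group, the rats kept the same order for several of these genes. From low to high in CPM the libraries ran 4, 1, 3, 6, 2, 5 for Itgam, Itgb2, Itgal and Cd44, and 392 of the 18444 tested genes (2.13%) had this order. SAH 7d-4 lay within the sham range for Itgam, Itgal and Cd44, and SAH 7d-2 and SAH 7d-6 were well above it. Without SAH 7d-5 the mean ± SD of Itgam in the group was 15.4 ± 12.8 FPKM (n = 5), and that of Itgb2 was 13.5 ± 11 FPKM (n = 5). The summed level of 8 microglia markers moved the same way, at 169 FPKM in SAH 7d-4, 539.5 FPKM in SAH 7d-2 and 1229 FPKM in SAH 7d-5, and the next values set the integrin levels against it. In the same 3 libraries the sums of monocyte and macrophage markers were 61.0, 180.4 and 6636 FPKM, those of neutrophil markers 1.24, 5.26 and 75.6 FPKM, and those of meningeal fibroblast markers 42.9, 83.2 and 609.8 FPKM. The part of these cell types in the spread of the integrin levels was not tested.

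**Figure D3:**
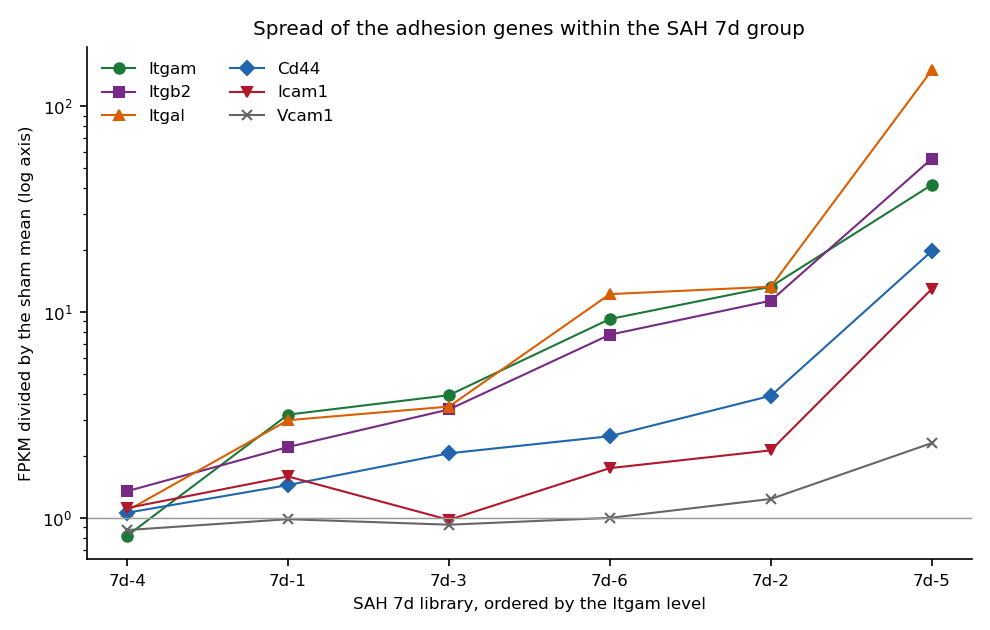
FPKM of 6 adhesion genes in the 6 SAH 7d libraries, each divided by the sham mean of the gene, on a log axis with the libraries ordered by Itgam; the grey line is the sham mean. The 3 β2 integrin chains and Cd44 rise in the same order from SAH 7d-4 to SAH 7d-5, while Vcam1 stays near the sham mean apart from SAH 7d-5.

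Ratios to the markers of cells that carry them were taken for the integrins and the wall molecules, as descriptions with no test. The ratios show neither which cells made a transcript nor its level per cell. Itgam was 1.13 to 1.98% of the summed microglia markers in sham, 6.67 to 17.2% at SAH 1d and 1.23 to 8.54% at SAH 7d. The SAH 1d libraries were all above sham in this ratio, and at SAH 7d only SAH 7d-4 was within the sham range. For Itgb2 the sham libraries reached at most 1.87%, and the lowest values were 5.33% at SAH 1d and 2.06% at SAH 7d, with no overlap of either SAH group with sham. Of the 8 microglia markers, P2ry12, a purine receptor of resting microglia, was lower at SAH 1d (log2 fold change -1.19, SE 0.35, adjusted p = 0.0251), and 7 did not pass. Without SAH 1d-3, 2 were lower and 2 higher, the latter Cx3cr1 (0.41, adjusted p = 0.028) and Csf1r (0.48, adjusted p = 0.0249).

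Among the wall molecules, Icam1 was 1.47 to 2.85% of 9 summed endothelial markers in sham, 5.14 to 31.0% at SAH 1d and 2.43 to 16.9% at SAH 7d. Vcam1 was 19.1 to 28.3%, 20.5 to 26.0% and 21.9 to 34.3%. The SAH 1d libraries were thus separated from sham for Icam1 and inside its range for Vcam1. None of the 9 endothelial markers passed the test at SAH 1d, and the median of their summed level was 81.0 FPKM in sham and 88.1 FPKM at SAH 1d. These markers do not stand for all endothelial genes. Of the 18 tested endothelial partners described below, 6 were higher at SAH 1d, among them Cdh5 (log2 fold change 1.01) and Podxl (0.86), and 3 were lower. Of the 9 markers Cldn5, the main claudin of brain endothelium, was listed at 0 in 3 sham, 3 SAH 1d and 5 SAH 7d libraries. It was the only endothelial marker with libraries at 0. Cldn5 did not pass at SAH 7d either (log2 fold change -1.61, SE 1.76, adjusted p = 0.619), so these zeros are not read as a loss.

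**Figure D4:**
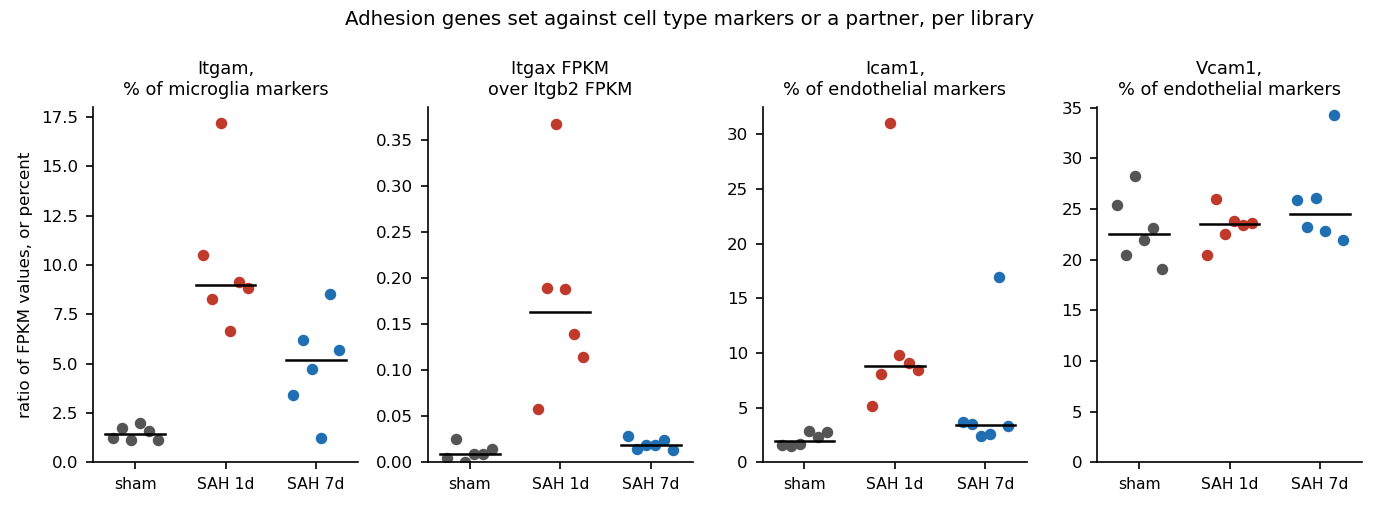
Ratios per library, from left to right, of Itgam to the summed FPKM of 8 microglia markers in percent, of Itgax to Itgb2, and of Icam1 and Vcam1 to the summed FPKM of 9 endothelial markers in percent; bars are group medians and axes start at 0. Itgam and Icam1 are separated from sham at SAH 1d (from 6.67% and 5.14% up), the Itgax ratio is high at SAH 1d only (0.0583 to 0.368), and the Vcam1 ratio overlaps between groups.

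Markers of blood leukocytes moved with the adhesion genes in part. The summed level of 8 neutrophil markers was 0.612 to 4.64 FPKM in sham, 3.21 to 83.1 FPKM at SAH 1d and 1.24 to 75.6 FPKM at SAH 7d. Of its 3 tested genes, S100a9 (log2 fold change 3.98, adjusted p = 0.0213) and Csf3r (log2 fold change 1.74, adjusted p = 0.00339) were higher at SAH 1d, and S100a9 lost its call without SAH 1d-3 (2.01, adjusted p = 0.0576). The granule genes Mpo, Elane and Camp were at 0 in 3 to 5 libraries of each group and reached at most 0.372 FPKM. In SAH 7d-5 the neutrophil sum was mostly Mmp8 (52.1 FPKM) and Csf3r (21.3 FPKM), with S100a9 at 1.29 FPKM.

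Of 5 monocyte and macrophage markers found, 3 were higher at SAH 1d, with a summed level of 34.8 to 55.4 FPKM in sham and 59.6 to 394 FPKM at SAH 1d. Of 6 T cell markers only 3 had enough reads to be tested. Among these 3, Cd8a alone was higher at SAH 1d (log2 fold change 2.08, adjusted p = 0.035), at no more than 0.705 FPKM. The lineage-defining genes Cd3e, Cd3d and Cd3g were each at or below 0.574 FPKM in that group. The T cell sum of 179 FPKM in SAH 7d-5 was almost wholly Cd8a, at 172 FPKM, beside 1.55 FPKM of Cd3e. Platelet markers, which matter for Selp, had sums of 1.18 to 3.68 FPKM in sham and 1.7 to 3.47 FPKM at SAH 1d, with 2.99 FPKM in SAH 1d-3. These sums were mostly Pf4 (medians of 2.01 FPKM in sham and 1.8 FPKM at SAH 1d). Only 2 of the 5 platelet genes had enough reads to be tested, and a part of platelets in the Selp level was not tested. Among the other lists, all 5 neuron markers were lower at SAH 1d and the astrocyte gene Gfap was higher (log2 fold change 3.0, SE 0.17). Aldh1l1, another astrocyte gene, was lower, as were 2 of the 4 tested cortical markers. Sums of the mural cell, meningeal fibroblast and red cell lists overlapped between sham and SAH 1d, and none of their tested genes passed. The part of these cell types in the adhesion results was not tested.

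Ratios among the β2 partners were computed after the values were seen and were not tested. The ratio of Itgal to Itgb2 FPKM was 0.0739 to 0.145 in sham, 0.146 to 0.355 at SAH 1d and 0.0856 to 0.284 at SAH 7d. The lowest SAH 1d value was barely above the highest sham value, and the SAH 7d values spread over both ranges. The ratio of Itgam to Itgb2 overlapped between sham (0.762 to 1.23) and SAH 1d (1.18 to 1.6), as did that of Itgal to Itgam (0.0863 to 0.133 and 0.123 to 0.229). Itgax, the α chain of the β2 integrin CR4 found on myeloid and dendritic cells, was 0 to 0.0251 of Itgb2 in sham, 0.0583 to 0.368 at SAH 1d and 0.0138 to 0.0292 at SAH 7d. The Itgax ratio at SAH 1d was thus above all values of the other groups, in SAH 1d-3 most of all.

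Across all 18 libraries, correlations of log2 CPM describe which members followed each other. Itgam, Itgb2 and Itgal were closest (Pearson r = 0.97 to 0.98 between pairs), and 0.94 to 0.98 over the 16 libraries that remain without the outlying ones. Icam1 was closest to Cd44 (r = 0.93, and 0.88 over 16 libraries). Sele was closest to Selp over 18 libraries (r = 0.83) and to Icam1 over 16 (0.75, beside 0.72 for Selp). Vcam1 had r of -0.05 to 0.55 with the other members over 18 libraries and -0.15 to 0.21 over 16. These values follow the group differences and the 2 outlying libraries, so they describe this data set and carry no test.

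Among all tested genes with a symbol, the 3 most like Itgam were Itgal (r = 0.980), the lysosomal protease gene Ctsz (0.975) and Rac2, a small GTPase of blood cells (0.971). The 3 most like Itgal were Ctsz (0.994), Rac2 (0.992) and Itgam. For Itgb2 they were Tyrobp, an adaptor of myeloid receptors (0.980), Kcnn4 (0.980) and Wdfy4 (0.978). For Cd44 they were Pdpn, which encodes podoplanin (0.982), Fgl2 (0.981) and Myc (0.975). Some of these places changed over 16 libraries, where Ly86 was closest to Itgam (0.987) and Pdpn stayed closest to Cd44 (0.985).

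For the wall molecules the closest genes were of other kinds. Icam1 had Utp14a (0.978), Ybx3 (0.974) and Oser1 (0.971), and Vcam1 had Laptm4a (0.935), Selenop (0.912) and Fam149a (0.910). Sele had AABR07058886.1 (0.939), Inmt (0.932) and Lrrc59 (0.929). The closest to Selp were Tnfaip3, a feedback inhibitor of NF-κB (0.862), Igfbp3 (0.861) and Usp39 (0.860), and these fell to 0.547 to 0.673 over 16 libraries. Itga4 had Nr2f2 (0.949), Phactr2 (0.863) and Tyms (0.858).

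Partner genes were taken from 7 lists of the adhesion pathway with 96 genes, of which 94 were found and 88 tested. In SAH 1d versus sham 47 were higher and 4 lower (58.0% changed, beside 25.4% of all tested genes). At least 2-fold changes were found in 28, all of them higher, beside 5.57% of all tested genes in that direction. Without the 2 outlying libraries the counts were 43 higher and 7 lower, beside 28.5% of all tested genes. The counts of higher genes per list that follow stand beside 14.9% of all tested genes, or 15.4% without SAH 1d-3.

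A list of inducers and regulators of adhesion molecules was higher at SAH 1d in 11 of 12 cases (10 without SAH 1d-3). It mixes cytokines, their receptors and NF-κB subunits with genes known to restrain endothelial adhesion, namely Nfkbia, Klf2, Klf4 and Nos3, and all 4 of these were among the 11. Tnfrsf1a, the main TNF receptor, rose from 4.73 to 8.41 FPKM in sham to 15.7 to 34.8 FPKM (log2 fold change 1.73, SE 0.22, adjusted p = 0.000212). Tnf itself stayed low, at 0.26 to 1.07 FPKM against 0.0365 to 0.234 FPKM (2.49, SE 0.44, adjusted p = 0.00197). Irf1, an interferon regulatory factor, rose (1.70, SE 0.27, adjusted p = 0.000954), as did Nfkbia, the inhibitor that NF-κB itself induces (1.65, SE 0.33, adjusted p = 0.00396). The list median was 1.36.

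Signalling genes that act on integrin activation were higher in 10 of 15 cases. Without SAH 1d-3, 10 were higher and Rasgrp2, an activator of Rap1, was lower (-0.73, adjusted p = 0.0464, and -0.93, adjusted p = 0.0693 with all libraries). Fgr, a Src family kinase of myeloid cells, had a log2 fold change of 2.96 (SE 0.48, adjusted p = 0.00116), and 2.23 without SAH 1d-3. Fermt3, the kindlin of blood cells that binds integrin tails, rose by 1.58 (SE 0.24, adjusted p = 0.000715), and the adaptor Fyb1 by 1.12 (SE 0.15, adjusted p = 0.000335). These 3 did not overlap with sham in CPM.

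Other leukocyte receptors were higher in 5 of 12 cases, and without SAH 1d-3 4 were higher and 1 lower. Itgax went from 0 to 0.0557 FPKM in sham to 0.752 to 8.05 FPKM at SAH 1d (log2 fold change 6.44, SE 0.73, adjusted p = 0.000102, and 5.58 without SAH 1d-3). Itga5, the α chain of the fibronectin receptor, rose (2.78, SE 0.58, adjusted p = 0.00505), and so did Itgb3 (2.40, SE 0.66, adjusted p = 0.0191). Without SAH 1d-3 these came to 1.69 and 1.74. Itgb3 overlapped with sham in CPM, and Itgb1, the β1 partner of Itga4, did not pass (0.52, SE 0.23, adjusted p = 0.109).

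Other endothelial partners were mixed, with 6 of 18 higher and 3 lower, and 6 higher and 4 lower without SAH 1d-3. Cdh5, the cadherin of endothelial junctions, had a log2 fold change of 1.01 (SE 0.25, adjusted p = 0.0106), and Podxl, a sialomucin, 0.86 (SE 0.21, adjusted p = 0.0113). Without SAH 1d-3 these came to 0.72 and 0.61. Alcam (-0.44, SE 0.09, adjusted p = 0.00359) and Cd99l2 (-0.48, SE 0.10, adjusted p = 0.00496) were lower, with no overlap in CPM, whereas their FPKM ranges overlapped. The third lower gene, Cd34, encodes a sialomucin that can carry selectin ligands (-0.61, SE 0.17, adjusted p = 0.018).

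Genes for selectin ligands and the enzymes that build their sugars were higher in 5 of 10 cases and lower in 1. Without SAH 1d-3, 4 were higher and 1 lower. B4galt1, a galactosyltransferase, rose by 1.77 (SE 0.33, adjusted p = 0.00252), and by 1.32 without SAH 1d-3. The sialyltransferase genes St3gal4 and St3gal6 rose by 0.56 (SE 0.13, adjusted p = 0.0071) and 0.57 (SE 0.14, adjusted p = 0.00976). Selplg, the P-selectin ligand PSGL-1 that microglia also express, was the lower gene, at 10.2 to 21.6 FPKM against 17.8 to 33.7 FPKM in sham (-0.68, SE 0.19, adjusted p = 0.0174).

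Matrix and plasma ligands of integrins were higher in 3 of 4 cases. These were complement C3, a ligand of Mac-1 once cleaved (2.43, SE 0.35, adjusted p = 0.000544), the platelet ligand gene Vwf (1.26, SE 0.14, adjusted p = 8.27e-05) and fibronectin, Fn1 (1.09, SE 0.23, adjusted p = 0.00567). In the list of CD44 and hyaluronan, 7 of 17 were higher, and 6 without SAH 1d-3. Spp1, the CD44 and integrin ligand osteopontin, went from 0.799 to 2.35 FPKM in sham to 13.6 to 185 FPKM (5.90, SE 0.56, adjusted p = 3.38e-05). Msn, which ties CD44 to actin, rose (2.11, SE 0.43, adjusted p = 0.00421, and 1.4 without SAH 1d-3), as did the hyaluronidase gene Hyal2 (0.61, SE 0.14, adjusted p = 0.0085) and Cemip, which binds and degrades hyaluronan (0.93, SE 0.18, adjusted p = 0.00313).

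**Figure D5:**
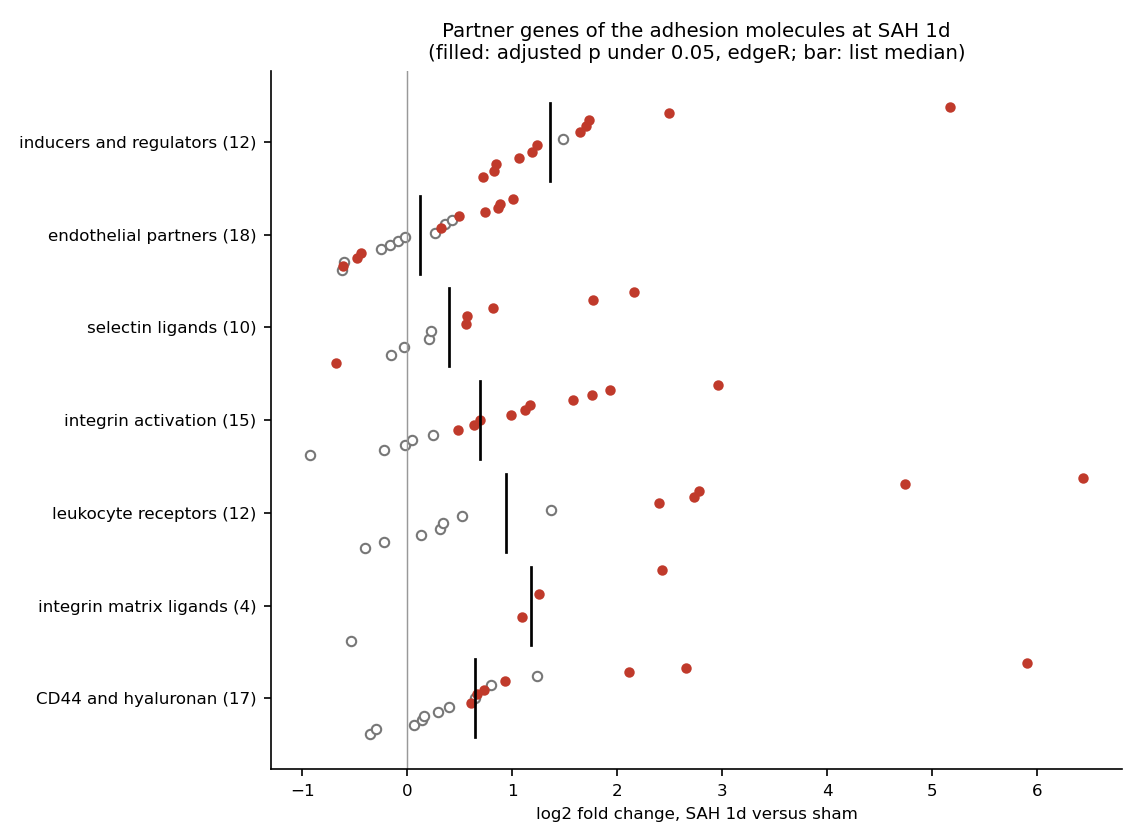
Log2 fold changes in SAH 1d versus sham for the 88 tested partner genes in 7 lists, with the number tested in brackets; filled points have an edgeR adjusted p under 0.05 and bars are list medians. Inducers and regulators have the highest list median (1.36, 11 of 12 filled; 0.93 without the outlying libraries, below the 1.05 of the integrin matrix ligands), and endothelial partners spread around 0 (median 0.12).

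At SAH 7d none of the 88 partner genes passed against sham in edgeR, where 0% of all tested genes did. DESeq2 called 14 of them higher, beside 2.27% of all genes with an adjusted p, and 18 without the 2 outlying libraries, beside 2.52%. From SAH 1d to SAH 7d, 3 were higher and 1 lower (4.55%, beside 1.37% of all tested genes). Selplg rose to 28.1 to 93.4 FPKM, above every SAH 1d library (log2 fold change 2.0, SE 0.30, adjusted p = 0.00627). Alcam (0.39, SE 0.08, adjusted p = 0.0363) and Cd34 (0.75, SE 0.17, adjusted p = 0.0496) were higher too, and ezrin, Ezr, a linker of CD44 to actin, was lower (-0.76, SE 0.17, adjusted p = 0.0484). Without the 2 outlying libraries, 3 were higher and 18 lower, beside 13.6% of all tested genes in either direction.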

How the data were processed

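Cortical RNA of 18 rats was sequenced, 1 library per rat. The authors trimmed adapters and low-quality reads, and the alignment used the rat build Rnor_6.0 per the study's methods. The submitters' notes name fastp, HISAT2, DESeq2 1.16.1 and the build mm9, although the gene identifiers are those of rat. The authors deposited whole-number read counts per gene and library, not normalized, and deposited FPKM values computed from the same alignments. The counting program is not given in the sources used here, nor how reads of a pair were counted, so errors rest on the spread between rats alone. Libraries were assigned by column names equal to the sample descriptions.

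Counts were tested in R 4.3.3 with edgeR 4.0.16 (filterByExpr over 18 libraries, TMM, two-sided quasi-likelihood F test on the 12 libraries of a comparison). The SE is the absolute log2 fold change divided by the square root of F. CPM for overlap and correlation used TMM-adjusted library sizes, with a prior count of 2 for logarithms. Alternatives were DESeq2 1.42.0, limma 3.58.1 (voom with sample weights, and log2 FPKM with pseudocounts of 1 and 0.1), other filters and libraries left out. The fits were also run on simulated counts, and the outcome is not reported here.

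The members, the 7 pathway lists, the 12 marker lists and the motifs were chosen with earlier results of these data known. Besides the members, the text names up to 4 passing genes per pathway list and comparison by smallest adjusted p, the 3 genes most correlated with each member, and marker genes at 0. Some genes that the rule picked are not reported here. Itgb1, Rasgrp2, Klf2, Klf4, Nos3, the marker genes above 0 and those with tests were named after their values were seen. The ratios were also chosen so. Python 3.11.15, pandas 2.3.3, numpy 2.4.6, scipy 1.17.1 and matplotlib 3.10.9 were used.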

Additional observations from a re-analysis of the deposited data

Results flagged for a closer look

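In each of the 27 sets of 6 libraries (9 genes in 3 groups), the most extreme FPKM value was compared with the rest of its set by Dixon's ratio, with a critical value of 0.625. For normally distributed values about 1 set in 20 would pass by chance. FPKM was used without logarithms and need not follow that distribution, so the rate for these data is not known. Of the 27 sets 13 passed, all of them in SAH 1d-3 or SAH 7d-5 and all as the highest value. In SAH 1d-3 these were Icam1 at 26.2, Sele at 16, Selp at 6.21, Itgb2 at 21.9 and Cd44 at 94.7 FPKM. In SAH 7d-5 these were Icam1 at 23.3, Vcam1 at 47.1, Sele at 0.566, Itgam at 105, Itgb2 at 144, Itgal at 41.1, Itga4 at 2.88 and Cd44 at 43.7 FPKM. The sets are not independent, since each library enters 9 of them.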

How the results depend on the processing

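For SAH 1d versus sham, 5 to 7 adhesion genes passed in every alternative, and leaving out each library in turn gave 7 of 9 each time. Sele lost its call in limma on log2(FPKM + 1) with no filter. Of all alternative fold changes of the members, 596 kept their direction and their side of the threshold, 23 passed only in the alternative, 6 passed only with the settings of the report and 32 changed sign, all of them values that had not passed. Leaving out single libraries gave 0 to 3 members for SAH 7d versus SAH 1d (3 without SAH 7d-5) and 1 to 14 partner genes (14 without SAH 7d-5), and log2 fold changes of -0.04 to 0.38 for Itga4 and -0.20 to 0.06 for Vcam1 (SAH 1d versus sham), -0.79 to 0.41 for Selp and -0.03 to 0.43 for Vcam1 (SAH 7d versus sham), and -0.17 to 1.05 for Itgam, -0.59 to 1.86 for Itgal and -0.08 to 0.80 for Itga4 (SAH 7d versus SAH 1d). The passing members were 3 in DESeq2 for SAH 7d versus sham, and 4 in DESeq2 without the 2 outlying libraries. For SAH 7d versus SAH 1d they were 1 in DESeq2, in the fit of all 18 libraries and in limma on log2(FPKM + 0.1), 4 in voom, and 3 without the 2 outlying libraries in edgeR and in DESeq2. Of the partner genes, 25 passed for SAH 1d versus sham in the fit of all 18 libraries. For SAH 7d versus sham, 14 passed in DESeq2, 18 in DESeq2 without both libraries and 1 in the fit of 18. For SAH 7d versus SAH 1d, 9 passed in DESeq2, 19 in voom, 7 in the fit of 18, 1 with no filter on low counts, 2 in limma on log2(FPKM + 1) with no filter, 21 without both libraries and 28 in DESeq2 without them. Where no share of all tested genes is given above for a setting, its counts cannot be read as particular to the members or the partner genes. Signs turned for Vcam1 in SAH 1d versus sham (0.06 in voom and 0.03 in each limma fit on FPKM) and in SAH 7d versus sham without both libraries (-0.03, and -0.04 in DESeq2). For SAH 7d versus sham they turned for Sele in voom (-0.30) and for Selp in voom (-1.95) and without both libraries (-0.79). For SAH 7d versus SAH 1d voom gave -0.58 for Itgam, -0.07 for Itgb2, -1.03 for Itgal and -0.10 for Itga4. The limma fits on FPKM gave -0.09 with either filter and -0.16 with the smaller pseudocount for Itgam, and -0.24 with the smaller pseudocount for Itgal. Without both libraries Itgal was at -0.51 (-0.50 in DESeq2) and Itga4 at -0.01. The cause of these shifts was not tested beyond the libraries left out. The replicate numbers do not pair the samples (correlations between the deviations of same-numbered libraries of -0.252 to 0.197). With the replicate block, 1 partner gene passed for SAH 7d versus SAH 1d, Selp lost its call at SAH 1d (adjusted p = 0.112), and the values were -0.65 for Selp in SAH 7d versus sham and -0.14 for Itgam and -0.45 for Itgal in SAH 7d versus SAH 1d. A minimum of 10 counts in every library leaves out Sele and Selp. Selp is limited by depth, with 4 to 8 reads in sham.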
